A study of Mus musculus with 16 samples.

Results

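Box C/D small nucleolar RNA (snoRNA) genes were followed in RNA of tdTomato-positive cells sorted from mouse lungs. The genes were chosen by annotation, as every gene that the tables give the biotype snoRNA and a symbol made of Snord and a digit. No measured value picked the single genes, but the family as such was taken up with its FPKM in the 4 groups already known. The rule found 97 genes, among 1505 genes with the biotype snoRNA and 49452 genes in all. In the files these genes were 64 to 238 bases long, with a median of 84 bases.

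The cells came from 16 mice in 4 groups of 4, made of 2 reporter lines that each received saline or bleomycin, a drug that injures the lung and leads to fibrosis. In the Acta2-CreERT2; tdTomatoflox line (Acta2-tdT) the promoter of the smooth muscle actin gene drives a tamoxifen-dependent Cre, and in the Pdgfra-CreERT2; tdTomatoflox line (Pdgfra-tdT) the promoter of the platelet-derived growth factor receptor alpha gene does. Both lines carry the Cre-dependent red fluorescent reporter, so a cell stays red once it has been labeled, whatever it expresses at harvest. All groups were harvested 14 days after the agent at 11 weeks of age. Acta2-tdT mice of both treatments ate tamoxifen food (400 mg/kg) that began 5 days after the agent. Pdgfra-tdT mice of both treatments had 5 injections of 3 mg tamoxifen at 6 weeks of age, so line and tamoxifen regimen cannot be told apart.

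Box C/D snoRNAs are short nucleolar RNAs that carry the conserved C and D boxes near their ends. Bound by fibrillarin and its partner proteins, most of them pair with ribosomal RNA and guide methylation of the ribose at the paired base, and a few are instead needed to cut the ribosomal precursor. In mammals nearly all are cut out of introns of host genes, many of which encode ribosomal proteins, while hosts such as Gas5 and Snhg1 make a spliced noncoding RNA. Mature snoRNAs have no poly(A) tail, and the SmartSeq2 protocol used here starts from poly(A), so the libraries were not built to capture them.

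Of the 97 genes, 52 lay within an intron of a host gene, 42 overlapped an annotated exon of another gene and 3 (Snord13, Snord104 and Snord118) lay between genes. In all, 53 different hosts were found. The host encoded a protein for 55 snoRNA genes, of which 20 sat in ribosomal protein genes, and was noncoding for 39. The 14 Snord116 copies with identical sequence, and the 2 overlapping Snord80 genes in Gas5, could not be told apart by reads that fit both.

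The sequences below belong to genes on which the comparisons turn. They are transcripts of GENCODE release M21 on GRCm38, the build of the files, written from the start of the gene on its own strand. Capitals mark the letters TGATGA (C box) within the first 20 bases and CTGA (D box) within the last 15 bases, searched on the strand of the gene alone. Snord78 (chr1:161036984-161037049, plus strand) lies in Gas5, Snord22 (chr19:8725866-8725991, plus strand) in Snhg1, and Snord32a (chr7:45127382-45127464, minus strand) and Snord35a (chr7:45126346-45126435, minus strand) in Rpl13a. Snord4a (chr11:78181686-78181756, minus strand) lies in Rpl23a and also overlaps an exon of Tlcd1 on the other strand. Snord96a (chr11:48802032-48802112, plus strand) lies in Rack1. Snord104 (chr11:106500993-106501062, plus strand) and Snord118 (chr11:69073427-69073561, plus strand) have no host. Snord90 (chr2:37400047-37400157, minus strand) lies in an intron of Rc3h2.
Snord78: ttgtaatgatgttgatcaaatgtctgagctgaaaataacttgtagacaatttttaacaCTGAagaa
Snord22: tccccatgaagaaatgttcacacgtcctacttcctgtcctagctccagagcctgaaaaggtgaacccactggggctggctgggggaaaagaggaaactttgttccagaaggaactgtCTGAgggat
Snord32a: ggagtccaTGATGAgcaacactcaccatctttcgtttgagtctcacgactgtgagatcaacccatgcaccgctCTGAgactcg
Snord35a: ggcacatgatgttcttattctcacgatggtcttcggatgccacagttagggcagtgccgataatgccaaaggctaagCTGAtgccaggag
Snord4a: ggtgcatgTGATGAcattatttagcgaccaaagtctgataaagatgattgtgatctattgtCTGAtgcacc
Snord96a: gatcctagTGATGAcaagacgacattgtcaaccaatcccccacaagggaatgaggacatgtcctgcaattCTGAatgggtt
Snord104: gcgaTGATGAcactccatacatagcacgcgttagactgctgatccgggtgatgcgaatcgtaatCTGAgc
Snord118: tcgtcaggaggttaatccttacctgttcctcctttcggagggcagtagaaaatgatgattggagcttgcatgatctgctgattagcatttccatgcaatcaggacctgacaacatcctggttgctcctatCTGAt
Snord90: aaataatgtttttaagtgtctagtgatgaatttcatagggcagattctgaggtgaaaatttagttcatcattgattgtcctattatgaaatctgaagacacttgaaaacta

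Both boxes in these letters stood in 68 of the 97 genes (70.1%). The D box letters were found in 92 genes and the C box letters in 69. Among 7698 other GENCODE transcripts of the same length range, 237 (3.1%) held both, and among 42 transcripts of the other main snoRNA class, box H/ACA, 0 did. The 61 snoRNA genes that were above 0 in any mouse held both boxes in 42 cases. A gene without a match lacks these exact letters in these windows and nothing more is read from that.

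The authors deposited FPKM, the fragments of a gene scaled to its length and to the mapped fragments of the library, for each mouse on its own. FPKM carry no counts, so the depth was not known. The Cufflinks bounds that go with each value give back an approximate number of fragments, here called implied fragments, if the upper bound is taken to lie 2 standard deviations of a count above the value. For the box C/D snoRNA genes this came out whole, within 0.05, for 203 of the 230 values above 0 (88.3%). Values that were not whole occurred in 11 genes, of which 9 overlap an exon of another gene and 2 are Snord104 and Snord118.

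A high FPKM of a snoRNA gene rested on very few fragments. Of 1552 values, 230 (14.8%) were above 0. At most 1 implied fragment lay behind 118 of these (51.3%) and at most 5 behind 198 (86.1%). The most was 29, for Snord118 in Acta2-tdT bleomycin mouse 5, and all 97 genes in all 16 mice summed to 667 implied fragments. What a fragment was worth depended on the length of the gene. As background, Cufflinks divides by an effective length that becomes very small for genes shorter than a usual fragment. An implied fragment had a median worth of 223 FPKM for genes of 64 to 74 bases, 82.8 FPKM at 76 to 90 bases, 35.1 FPKM at 93 to 110 bases and 7.06 FPKM at 111 to 238 bases. Snord78 (66 bases), for example, had 2816 FPKM in Acta2-tdT bleomycin mouse 5 from 8 implied fragments, whereas Snord17 (238 bases) had 9.85 FPKM in mouse 8 of that group from 8 as well. FPKM of different snoRNA genes are therefore not compared as amounts below, and the values of a gene are compared between mice only.

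**Figure D1:**
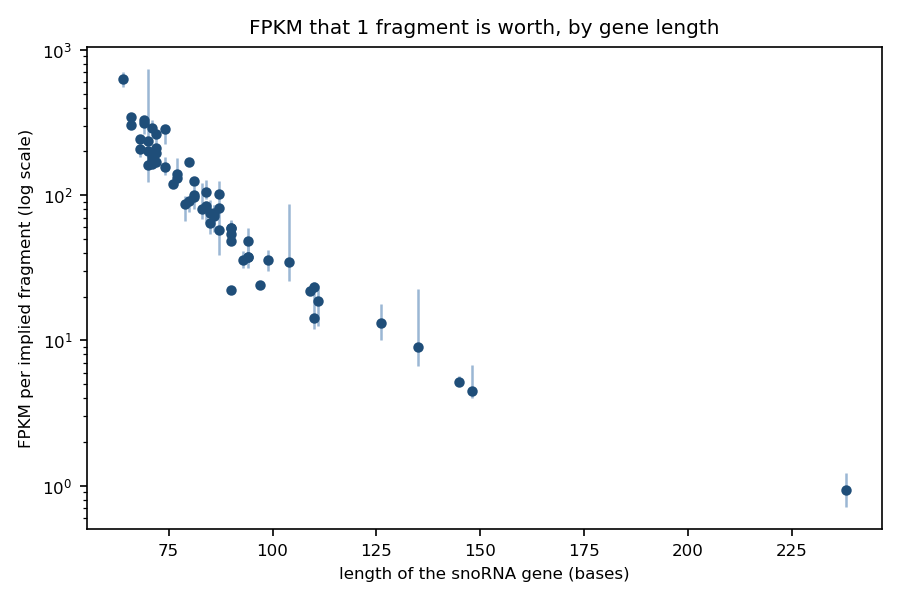
FPKM per implied fragment (log scale) against the length of the gene in bases, for the box C/D snoRNA genes with such a value. Points are the medians over the mice in which the gene was above 0 and lines run from the lowest to the highest; the worth of 1 fragment falls from a median of 223 FPKM at 64 to 74 bases to 0.928 FPKM in Snord17, the longest gene.

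The libraries themselves differed, and this bears on every value that follows. Implied fragments in genes numbered 1356769 to 2252680 in Acta2-tdT mice with saline and 4797475 to 8329514 with bleomycin. In Pdgfra-tdT mice they numbered 1363307 to 2010615 with saline and 600410 to 3349415 with bleomycin. The summed FPKM of nuclear protein-coding genes ran from 241916 to 466183 in Acta2-tdT bleomycin mice and from 29727 to 147467 in all others. Pdgfra-tdT saline mouse 3 and Pdgfra-tdT bleomycin mouse 5 stood apart from their groups, with 76.3% and 84.9% of implied gene fragments in protein-coding genes against at most 46.3% and 66.1% in the other mice. Acta2 had 139 to 314 FPKM with saline and 1229 to 3211 with bleomycin in the Acta2-tdT libraries and at most 19.4 in the Pdgfra-tdT libraries. Pdgfra had 2.14 to 3.82 FPKM in Pdgfra-tdT saline and 0.977 to 2.45 in Pdgfra-tdT bleomycin mice, but 2.49 to 11.9 in Acta2-tdT bleomycin mice, so with bleomycin it was not higher in the libraries labeled Pdgfra-tdT. In the Acta2-tdT line the summed FPKM of 6 macrophage markers ran from 42.8 to 215 in saline and from 1350 to 5837 in bleomycin mice. That of 6 fibroblast markers was 19.1 to 38.7 and 1030 to 3143, and that of 5 neutrophil markers 679 to 1304 and 989 to 5294, with no listed marker at 0 in all mice. In the Pdgfra-tdT line macrophage markers had 29.9 to 76.7 with saline and 368 to 3203 with bleomycin, fibroblast markers 6.82 to 56.4 and 2.62 to 160.0, and neutrophil markers 17.3 to 38.3 and 6.04 to 145. With bleomycin the fibroblast and neutrophil sums of the lines did not overlap. The sums of 4 endothelial markers were 5.03 to 11.7 in Acta2-tdT and 1.23 to 113 in Pdgfra-tdT mice with bleomycin, and those of 5 epithelial markers 290.1 to 1529 and 39.3 to 219. The part of these libraries' depth and cell content in the results below was not tested. In bulk RNA fewer cells of a type and less RNA per cell cannot be told apart.

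Far more box C/D snoRNA genes were detected (FPKM above 0) in bleomycin-treated Acta2-tdT mice than in any other group. The 4 mice of that group had 38, 23, 30 and 34 of the 97 genes. Acta2-tdT saline mice had 14, 12, 10 and 16. Pdgfra-tdT mice had 8, 8, 6 and 8 with saline and 12, 4, 4 and 3 with bleomycin. Every bleomycin-treated Acta2-tdT mouse was thus above each of the other 12 mice, and the Acta2-tdT saline mice were each above the Pdgfra-tdT saline mice, whereas the Pdgfra-tdT treatments overlapped. Pdgfra-tdT bleomycin mouse 5, which stood apart in its protein-coding share, was also the highest of its group.

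The larger number went along with more fragments in genes overall. Summed implied fragments of the 97 genes were 157, 83.2, 106 and 102 in bleomycin-treated Acta2-tdT mice and 54.5, 14.2, 14.0 and 33.3 in Acta2-tdT saline mice. Pdgfra-tdT mice had 8.99 to 27.6 with saline and 3 to 31.3 with bleomycin. For every 1000000 implied gene fragments, however, Acta2-tdT bleomycin mice had 27.2, 17.3, 12.8 and 14.5 and Acta2-tdT saline mice 30.3, 10.5, 7.51 and 14.8, so these groups overlapped. Divided instead by the relative depth that Cufflinks used to normalize, which was 0.834 to 1.04 in Acta2-tdT bleomycin and 1.02 to 1.35 in Acta2-tdT saline mice, the sums were 87.5 to 173 and 11.6 to 40.2 fragments and did not overlap. Whether the treatments separated thus depended on the denominator. For every 1000000 implied gene fragments the values were 6.97, 6.52, 13.7 and 6.60 in Pdgfra-tdT saline and 9.35, 8.32, 4.52 and 2.73 in Pdgfra-tdT bleomycin mice.

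**Figure D2:**
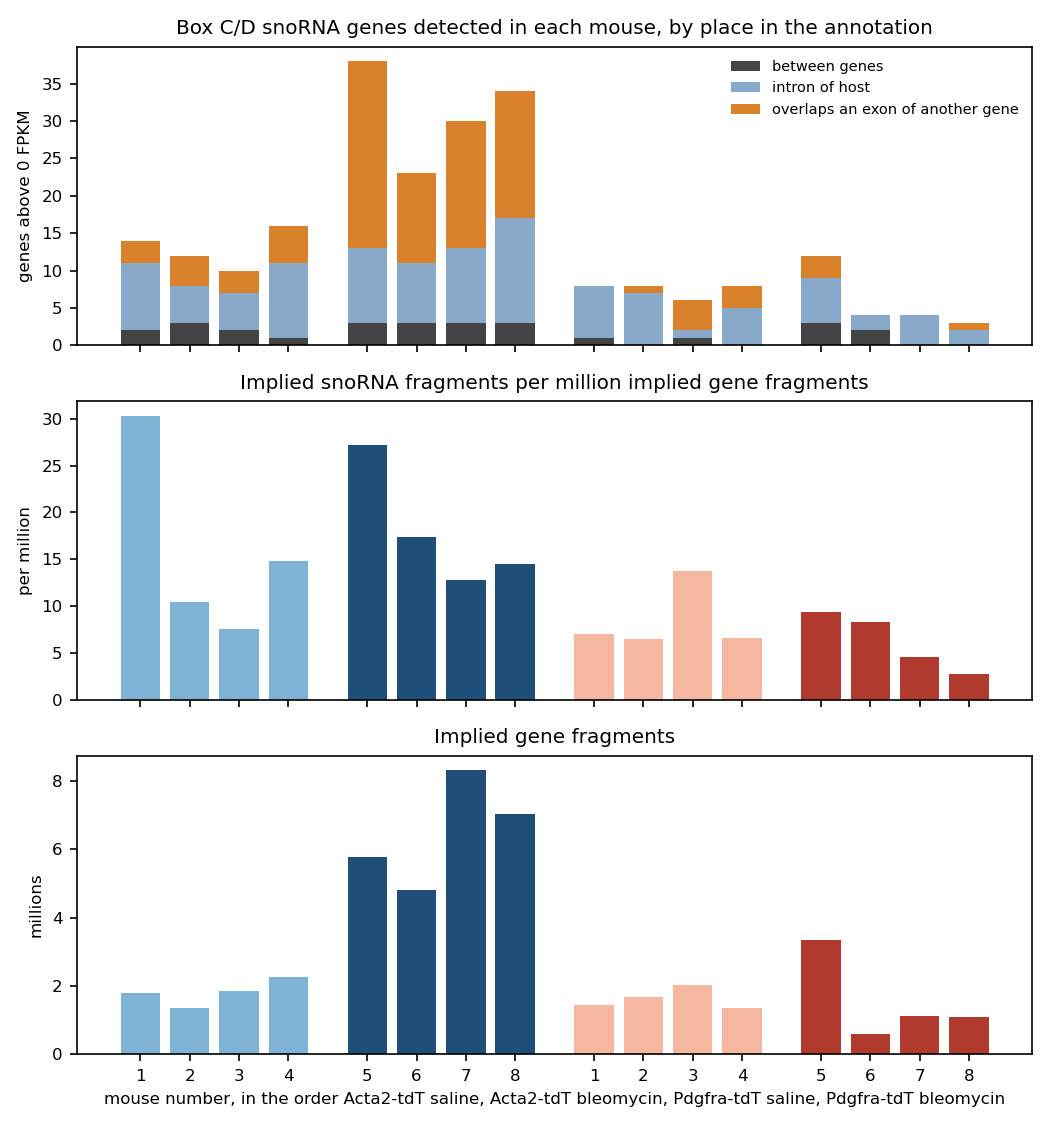
Bars for each of the 16 mice: above, the number of box C/D snoRNA genes above 0 FPKM, split by place in the annotation; in the middle, their implied fragments for every 1000000 implied gene fragments; below, implied gene fragments. The 4 Acta2-tdT bleomycin mice stand highest above (23 to 38 genes) and below (4797475 to 8329514), but overlap with Acta2-tdT saline in the middle.

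Detection was also followed by the place of the gene. Of the 388 values of a group, those above 0 numbered 52 (saline) and 125 (bleomycin) in the Acta2-tdT line and 30 and 23 in the Pdgfra-tdT line. Among the 42 snoRNA genes that overlap an annotated exon, 15 of 168 values were above 0 in Acta2-tdT saline and 71 in Acta2-tdT bleomycin mice, with 3 to 5 such genes in each saline and 12 to 25 in each bleomycin mouse. Among the 52 genes inside introns, 29 of 208 values were above 0 with saline and 42 with bleomycin, with 5 to 10 and 8 to 14 genes in each mouse. The genes over exons thus separated the treatments in the Acta2-tdT line, and the genes in introns overlapped. In the Pdgfra-tdT line the genes over exons gave 8 values with saline and 4 with bleomycin, and the genes in introns gave 20 and 14. Whether fragments over an exon came from the snoRNA or from the longer transcript cannot be told apart with these values.

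Among the kinds of host, genes for ribosomal proteins had the highest share of values above 0 in the bleomycin-treated Acta2-tdT mice. Their 20 snoRNA genes were above 0 in 42 of 80 values in Acta2-tdT bleomycin mice, against 14 with saline, and in 9 (saline) and 7 (bleomycin) in the Pdgfra-tdT line. The 35 genes with another protein-coding host had 38 of 140 values above 0 in Acta2-tdT bleomycin and 22 in Acta2-tdT saline mice. The 22 genes with a noncoding host outside the imprinted clusters had 33 of 88 and 8.

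Of the 97 genes, 61 were above 0 in at least 1 mouse and 36 were listed at 0 in all 16. No gene was above 0 in all 16 mice, and 3 were in at least 8 mice. These were Snord13 (11 mice, median 55.5 FPKM over all mice), Snord17 (10 mice, 0.900) and Snord118 (9 mice, 13.3), which were also the only members with a median above 0. In 15 genes the values above 0 were all in Acta2-tdT bleomycin mice, in 2 they were all in Acta2-tdT saline and in 2 all in Pdgfra-tdT saline mice. No gene was above 0 in Pdgfra-tdT bleomycin mice alone. Both lines shared 27 genes, 30 were above 0 in the Acta2-tdT line alone and 4 in the Pdgfra-tdT line alone. With 1 fragment behind many values, a gene listed at 0 was not detected, and whether it was absent cannot be told from these values.

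Detection in all 4 mice of a group was nearly limited to the bleomycin-treated Acta2-tdT mice. There it held for 12 genes, Snord4a, Snord13, Snord17, Snord22, Snord32a, Snord35a, Snord55, Snord78, Snord96a, Snord100, Snord104 and Snord118. Snord90 was the only gene above 0 in all 4 Acta2-tdT saline mice, and no gene reached this in either Pdgfra-tdT group.

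**Figure D3:**
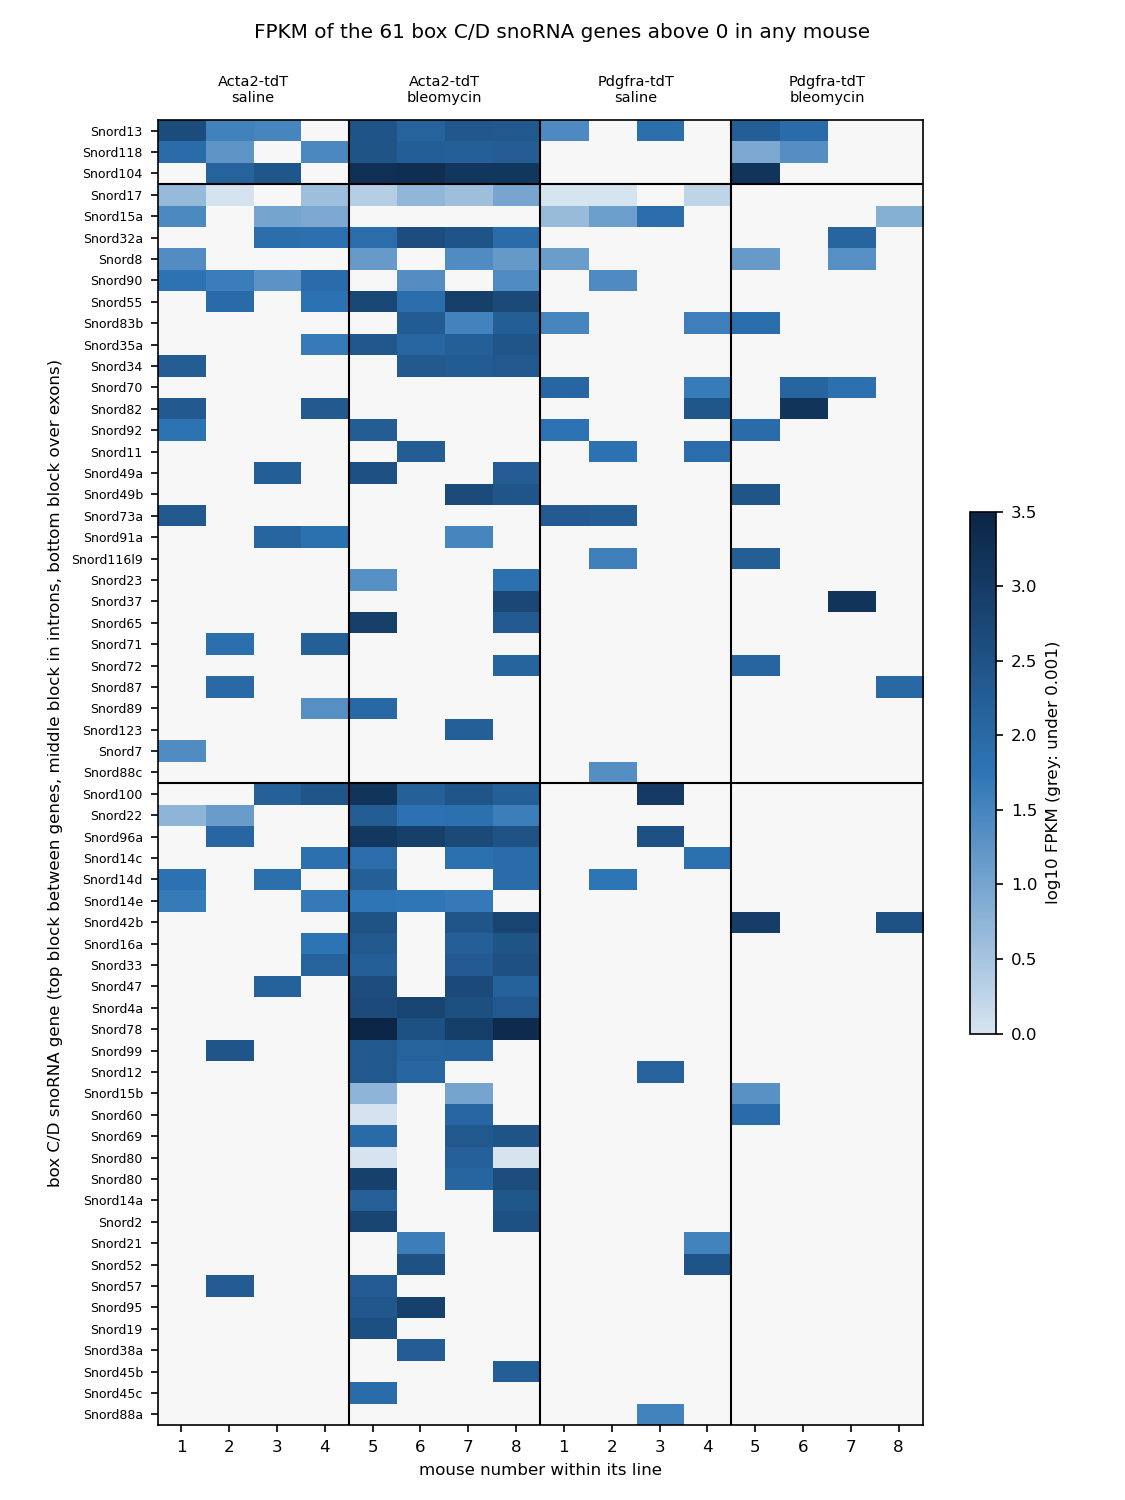
Heat map of log10 FPKM for the 61 box C/D snoRNA genes (rows) above 0 in any of the 16 mice (columns, by group). Horizontal lines part genes between genes, in introns and over exons; values from 0.001 up to 1 have the palest blue. The block of 4 Acta2-tdT bleomycin columns is filled most densely, above all in the lowest rows.

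The snoRNAs that act in cleavage of the ribosomal precursor were 7 of the 97 genes, namely Snord13, Snord22, Snord118 and the Snord14 copies a, c, d and e. Together they had 149 implied fragments in the Acta2-tdT mice with bleomycin and 43.8 with saline, and 8 and 4.99 in the Pdgfra-tdT mice. Snord118, which is needed to mature the large ribosomal subunit RNAs, had 291, 169, 164 and 184 FPKM in the 4 Acta2-tdT bleomycin mice and 86.6, 17.6, 0 and 28.1 FPKM in the Acta2-tdT saline mice. It was listed at 0 in all Pdgfra-tdT saline mice and had 8.98, 22.5, 0 and 0 FPKM in Pdgfra-tdT bleomycin mice. The bleomycin-treated Acta2-tdT mice lay above all others for Snord118, which is transcribed from its own promoter.

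Snord13, which also has its own promoter and takes part in making the small ribosomal subunit, behaved less evenly. Acta2-tdT saline mice had 429, 35.9, 31.1 and 0 FPKM and Acta2-tdT bleomycin mice had 284, 136, 243 and 226. In the Pdgfra-tdT line it had 25.8, 0, 75.2 and 0 FPKM with saline and 172, 86.9, 0 and 0 with bleomycin. Acta2-tdT saline mouse 1 exceeded all bleomycin mice for Snord13, so the treatments overlapped. Snord104, the other gene outside any host, had 1851, 1924, 1263 and 1238 FPKM in Acta2-tdT bleomycin and 0, 138, 247 and 0 in Acta2-tdT saline mice. In the Pdgfra-tdT line Snord104 was listed at 0 in 7 mice and had 1460.0 FPKM, from 9 implied fragments, in bleomycin mouse 5.

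The Snord14 copies showed less. Snord14a, in Rps13, was above 0 in 2 mice, both Acta2-tdT bleomycin (155 and 252 FPKM). Snord14c, Snord14d and Snord14e, in the heat shock gene Hspa8, had at most 2 implied fragments in any mouse, and their values in Acta2-tdT mice overlapped between treatments. Snord14e, for example, had 46.1, 0, 0 and 47.3 FPKM with saline and 55.0, 53.8, 48.0 and 0 with bleomycin.

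Gas5 is a spliced noncoding RNA whose introns encode guides for ribosomal RNA methylation. Gas5 itself (chr1:161034607-161038539) had 143, 70.01, 87.3 and 112 FPKM in Acta2-tdT bleomycin mice and 3.21, 2.33, 4.49 and 8.72 in Acta2-tdT saline mice. Pdgfra-tdT mice had 0, 1.51, 21.1 and 0.908 FPKM with saline and 31.3, 3.67, 2.21 and 0.817 with bleomycin. The Acta2-tdT bleomycin mice lay above the other 12, and in each Pdgfra-tdT group the highest mouse was the one that stood apart.

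The 4 box C/D snoRNA genes in Gas5 followed only in part. All of them overlap an annotated exon of Gas5, so their fragments cannot be told apart from those of the host. Snord78 had 2816, 336, 891 and 2220.3 FPKM in the Acta2-tdT bleomycin mice, from 8, 1, 3 and 6 implied fragments, and was listed at 0 in the other 12 mice. Snord47 had 416, 0, 473 and 145 FPKM in the Acta2-tdT bleomycin mice and 140.2 in Acta2-tdT saline mouse 3. The overlapping Snord80 pair was above 0 in 3 Acta2-tdT bleomycin mice and in no other mouse. Pdgfra-tdT bleomycin mouse 5, with 31.3 FPKM of Gas5, had no fragment of any of its snoRNA genes.

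Snhg1 (chr19:8723475-8726443) hosts Snord22 among this family. The host had 77.2, 46.9, 38.4 and 46.2 FPKM in Acta2-tdT bleomycin mice, 2.94, 1.22, 2.79 and 4.20 in Acta2-tdT saline mice and at most 11.9 in the Pdgfra-tdT mice. Snord22 had 180.3, 66.4, 71.3 and 40.3 FPKM in Acta2-tdT bleomycin and 5.57, 13.4, 0 and 0 in Acta2-tdT saline mice, and was listed at 0 in all 8 Pdgfra-tdT mice. It overlaps an exon of Snhg1, and its implied fragments (2.25 to 13.6 in the Acta2-tdT bleomycin mice) were not whole. Snhg12 (chr4:132308678-132311024) had 35.7, 14.9, 14.7 and 26.0 FPKM in Acta2-tdT bleomycin and 1.16 to 4.61 in Acta2-tdT saline mice. In the Pdgfra-tdT line Snhg12 had 1.43, 1.61, 3.09 and 0.984 FPKM with saline and 0.449, 0.776, 0.789 and 1.01 with bleomycin, so that it was lower with bleomycin in means (0.755 against 1.78) with overlapping mice. Its box C/D gene Snord99 had 229, 133, 146 and 0 FPKM in Acta2-tdT bleomycin mice and 266 FPKM in Acta2-tdT saline mouse 2, always from less than 1 implied fragment, so that nothing can be read from its level.

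Rpl13a (chr7:45125558-45128761), which encodes a protein of the large ribosomal subunit, hosts 4 guides for ribosomal RNA methylation. The host had 432, 274, 500.3 and 518 FPKM in Acta2-tdT bleomycin and 23.2, 15.7, 34.9 and 54.0 in Acta2-tdT saline mice. In the Pdgfra-tdT line it had 2.86, 2.22, 33.0 and 3.54 FPKM with saline and 209, 43.6, 22.9 and 2.52 with bleomycin. Pdgfra-tdT bleomycin mouse 5 thus came near the lowest Acta2-tdT bleomycin mouse for the host, but had no fragment of any of the 4 snoRNA genes.

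Snord35a had 246, 118, 162 and 266 FPKM in Acta2-tdT bleomycin mice and 45.8 FPKM in Acta2-tdT saline mouse 4, and was listed at 0 in the remaining 11 mice. Snord32a had 83.4, 403, 281 and 88.3 FPKM in Acta2-tdT bleomycin mice, 0, 0, 78.8 and 68.9 in Acta2-tdT saline mice and 122 in Pdgfra-tdT bleomycin mouse 7. Snord33 and Snord34 were each above 0 in 3 Acta2-tdT bleomycin mice and 1 Acta2-tdT saline mouse. Together the 4 genes had 6.30 to 10.2 implied fragments in each Acta2-tdT bleomycin mouse, 0 to 3.32 in Acta2-tdT saline mice, 0 in Pdgfra-tdT saline mice and at most 1 in those given bleomycin.

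**Figure D4:**
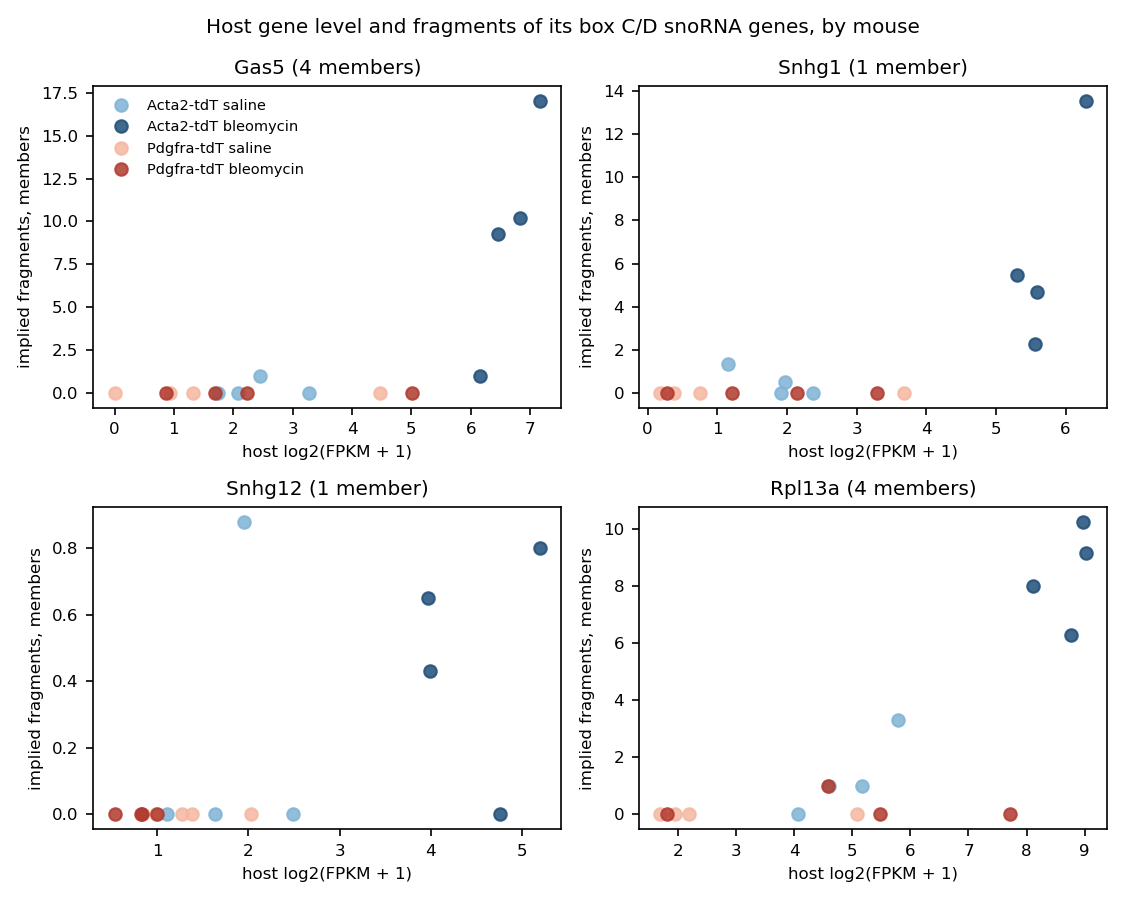
Implied fragments of the box C/D snoRNA genes in a host against log2(FPKM + 1) of the host, 1 panel for each host and 1 point for each of the 16 mice, colored by group. The Acta2-tdT bleomycin mice are the 4 highest for each host; Pdgfra-tdT bleomycin mouse 5, at 209 FPKM of Rpl13a close to the lowest of them (274), has 0 fragments of its snoRNA genes.

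Further members were found in all 4 Acta2-tdT bleomycin mice. Snord96a, in the ribosomal scaffold gene Rack1, had 1222, 838, 480.0 and 299.7 FPKM in Acta2-tdT bleomycin mice, 115 in Acta2-tdT saline mouse 2 and 346 in Pdgfra-tdT saline mouse 3, with 0 in the other 10 mice. Snord4a, in Rpl23a, had 441, 649.6, 375 and 234 FPKM in Acta2-tdT bleomycin mice and was listed at 0 in the other 12. Its implied fragments were 2.23 at most, and its reads cannot be told apart from those of Tlcd1 on the other strand, since no strand is given for the counting. Snord55 had 537, 83.3, 834 and 489 FPKM in Acta2-tdT bleomycin mice and 91.97 and 66.6 in 2 Acta2-tdT saline mice, and was listed at 0 in all Pdgfra-tdT mice. Snord100, in Rps12, had 1430.0, 155, 272 and 164 FPKM in Acta2-tdT bleomycin mice, 0, 0, 156 and 279.6 in Acta2-tdT saline mice and 1101 in Pdgfra-tdT saline mouse 3, so its groups overlapped. Snord96a and Snord100 overlap annotated exons of Rack1 and Rps12, so their fragments cannot be told apart from those of these hosts.

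Of the 61 members above 0 in any mouse, 10 were listed at 0 in all bleomycin-treated Acta2-tdT mice, among them Snord15a and Snord70, and others such as Snord90 were above 0 in some of them. Snord90, within an intron of the ubiquitin ligase gene Rc3h2, had 63.6, 42.1, 18.6 and 87.8 FPKM in Acta2-tdT saline mice and 0, 23.2, 0 and 24.2 in Acta2-tdT bleomycin mice, from 5 implied fragments at most. It had 24.9 FPKM in Pdgfra-tdT saline mouse 2 and 0 in the other Pdgfra-tdT mice. Snord15a, in an intron of Rps3, had 26.8, 0, 10.1 and 8.82 FPKM in Acta2-tdT saline mice and was listed at 0 in all Acta2-tdT bleomycin mice, whereas Rps3 had 7.11 to 23.5 FPKM with saline and 216 to 419 with bleomycin. Its most fragments, 14, were in Pdgfra-tdT saline mouse 3 (84.3 FPKM). Snord70, in Nop58, was above 0 in 4 Pdgfra-tdT mice (45.0 to 126 FPKM) and in no Acta2-tdT mouse. Snord15a and Snord70 were singled out after their values had been seen.

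The snoRNAs of the imprinted clusters, which are known for brain expression, were nearly undetected. Of 19 such genes, Snord116l9 alone was above 0, with 37.8 FPKM in Pdgfra-tdT saline mouse 2 and 177 FPKM in Pdgfra-tdT bleomycin mouse 5. All 304 values of these genes rested on 4 implied fragments. Snhg14, the annotated host of 17 of them, was nevertheless listed at 71.5 to 82.0 FPKM (saline) and 21.5 to 43.7 FPKM (bleomycin) in the Acta2-tdT line and at 75.8 to 132 and 45.6 to 106 FPKM in the Pdgfra-tdT line, values that were looked up after those of the snoRNA genes. Of the members above 0 in any mouse 58 had a host, and the median over them of the host's level was 3.22 FPKM. For the 18 members that were at 0 throughout and outside the imprinted clusters it was 0.830 FPKM, and with the imprinted members it was 18.6 FPKM.

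The lines were first compared within each treatment, to ask which genes separate the 2 lineages in uninjured and in injured lungs. Genes were tested with limma on log2(FPKM + 1) if they had at least 1 FPKM in at least 4 of the 8 mice, and called at an adjusted p (Benjamini-Hochberg) under 0.05. With saline 4 box C/D snoRNA genes could be tested and 0 were called, where 2.91% of all 8153 genes tested were (2.72% higher and 0.184% lower in Acta2-tdT cells). With limma, 1 of them, Snord90, had an unadjusted p under 0.05 (adjusted p = 0.103). It reached the filter because all 4 Acta2-tdT mice did, and was above 0 in 1 Pdgfra-tdT saline mouse. The others were Snord13, Snord15a and Snord17, with log2 differences of 1.99, -0.25 and 0.70, Acta2-tdT minus Pdgfra-tdT.

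With bleomycin 15 members could be tested, and 12 were called higher in Acta2-tdT cells and 0 lower. Of all 11995 genes tested, 79.6% were called, 71.0% higher and 8.61% lower, so most genes of any kind were called in this comparison. The remaining 82 members could not be tested. Those called were Snord4a, Snord13, Snord17, Snord22, Snord32a, Snord35a, Snord55, Snord78, Snord96a, Snord100, Snord104 and Snord118. Each was above 0 in all 4 Acta2-tdT mice, while 8 were listed at 0 in every Pdgfra-tdT mouse with bleomycin, Snord32a and Snord104 were above 0 in 1 of them, and Snord13 and Snord118 in 2. All 12 thus reached the filter because all 4 Acta2-tdT mice did, so neither a fold change nor a p is given, and their number is not read as a result. The median difference over all genes tested was 1.81. Those not called were Snord8, Snord42b and Snord83b.

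Bleomycin was then compared with saline within each line. In Acta2-tdT cells 22 members could be tested, of which 10 were called higher with bleomycin and 1 lower, where 86.6% of all 12523 genes tested were called, 70.4% rising and 16.3% falling. Of those called higher, Snord4a and Snord78 were listed at 0 in all saline mice, Snord35a and Snord96a were above 0 in 1 of them, and Snord22, Snord32a, Snord55, Snord100 and Snord104 in 2. These 9 reached the filter because all 4 bleomycin mice did, so their values stand above as a description, and neither a fold change nor a p is given for them. Snord118, above 0 in 3 of 4 saline mice, rose by 3.74 ± 1.12 (SE) on the log2 scale (limma adjusted p = 0.00927), against a median of 1.76 over all genes tested. It lost its call in 3 of 17 alternatives and its difference fell to 0.83 with every mouse scaled to the same nuclear protein-coding sum. This is a difference of log2(FPKM + 1) in which 0 counts as a value, so it depends on the added 1. The member called lower was Snord90, which reached the filter because all 4 saline mice did and was above 0 in 2 bleomycin mice, so no fold change is given for it either. Among the 11 members not called were Snord13 (3.01 ± 1.44, limma adjusted p = 0.0702), Snord47 and the 3 testable Snord14 copies.

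In Pdgfra-tdT cells 3 members could be tested (Snord13, Snord15a and Snord70) and 0 were called by limma or had an unadjusted p under 0.05. Of all 7275 genes tested, 0.124% were called, 0.0275% higher and 0.0962% lower. The differences, bleomycin minus saline, were 0.73 ± 2.23 for Snord13, -2.40 ± 1.33 for Snord15a and 0.18 ± 2.26 for Snord70.

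Whether bleomycin acted differently in the lines was tested by the interaction over all 16 mice. Of 28 members tested, 6 were called with a larger difference in Acta2-tdT than in Pdgfra-tdT cells and 0 with a smaller one, where 39.8% of all 16605 genes tested were called, 36.6% in the first direction and 3.20% in the other. They were Snord4a, Snord22, Snord35a, Snord55, Snord78 and Snord96a. All except Snord96a were listed at 0 in all 8 Pdgfra-tdT mice, so they entered the test through Acta2-tdT mice alone and their interaction is the difference within Acta2-tdT cells over again. Snord96a was above 0 in 1 mouse of that line, Pdgfra-tdT saline mouse 3, and it too reached the filter through the 4 Acta2-tdT bleomycin mice. For these 6 the interaction is not read as a difference in response between the lines. The comparisons above share groups of mice, so they are not independent of each other. Without the mice that stood apart, Pdgfra-tdT saline 3 and Pdgfra-tdT bleomycin 5, a choice made after seeing the data, the interaction was called for 9 of 27 members tested, where 56.3% of all 15678 genes were called. For bleomycin in Pdgfra-tdT cells 1 member could then be tested, and limma called 0 of all 5418 genes.

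The 4 hosts moved with most other genes. In Acta2-tdT cells all 4 were higher with bleomycin than with saline, with mean FPKM of 103 ± 31.6 against 4.69 ± 2.83 (SD, n = 4) for Gas5, 52.2 ± 17.1 against 2.79 ± 1.22 for Snhg1, 22.8 ± 10.1 against 2.68 ± 1.46 for Snhg12 and 431 ± 111 against 31.9 ± 16.7 for Rpl13a. The log2 differences were 4.26 ± 0.43, 3.83 ± 0.38, 2.68 ± 0.41 and 3.81 ± 0.46 (SE), with limma adjusted p-values of 1.77e-05, 1.70e-05, 0.000142 and 3.54e-05. Every bleomycin mouse was above every saline mouse for each host, which gives the exact permutation test over the 70 labelings its smallest two-sided p, 0.0286. Of all genes tested in this comparison, 70.4% were called higher, so the hosts are not set apart from most genes by this. Between the lines with bleomycin the 4 hosts were also called higher in Acta2-tdT cells, where 71.0% of all genes tested were. Gas5, Snhg1 and Rpl13a differed by 4.20 ± 0.90, 3.95 ± 0.71 and 3.82 ± 1.16 on the log2 scale (limma adjusted p = 0.00153, 0.000612 and 0.0102). Snhg12 had at least 1 FPKM in 1 of the Pdgfra-tdT bleomycin mice and reached the filter because all 4 Acta2-tdT mice did, so no fold change is given for it. By limma 0 were called between the lines with saline (1 at an unadjusted p under 0.05) or by bleomycin in Pdgfra-tdT cells (0). With sample quality weights, where 33.3% of all genes were called between the lines with saline against 2.91%, Rpl13a was called there (limma adjusted p = 0.00235). Snhg1 was called there too, but had at least 1 FPKM in 1 Pdgfra-tdT saline mouse. It reached the filter because all 4 Acta2-tdT mice did, so nothing is read from that call. With the weights Rpl13a was also called for bleomycin in Pdgfra-tdT cells (limma adjusted p = 0.0481), where 7.53% of all genes were called. In the main fit the interaction was called for Gas5 (limma adjusted p = 0.0454), Snhg1 (0.0208) and Snhg12 (0.000435) but not for Rpl13a (0.373). Of all genes tested, 39.8% were called. Snhg1 had at least 1 FPKM in 1 Pdgfra-tdT saline mouse and Snhg12 in 1 Pdgfra-tdT bleomycin mouse. No difference in response between the lines is read from the calls of these 2 hosts.

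These differences depended on the scaling. With every mouse scaled to the same nuclear protein-coding sum, the median difference over all genes between bleomycin and saline in Acta2-tdT cells went from 1.76 to -0.014, and 3064 of 7128 genes called were higher, against 8811 of 10848. Gas5, Snhg1 and Rpl13a then rose by 1.43, 1.09 and 0.86 (limma adjusted p = 0.00332, 0.0206 and 0.0318), Snhg12 by 0.12 was not called (limma adjusted p = 0.777), and of the box C/D snoRNA genes 4 were called higher (Snord4a, Snord35a, Snord78 and Snord96a) and 1, Snord90, lower. Snord22, Snord32a, Snord55, Snord100, Snord104 and Snord118 were then not called. The members still called had each reached the filter through the group where they were higher, so their number is not read as a result. Between the lines with bleomycin 10 of 15 members tested and 3 hosts were then called, all higher in Acta2-tdT cells, where 34.7% of all genes were called and 17.2% (2069 of 11995) were higher. Rpl13a was then not called (limma adjusted p = 0.248). The 12 members called without scaling, and Snhg12, had reached the filter because all 4 Acta2-tdT mice did. The number of members is therefore not read against the share of all genes. The interaction was then called for 2 of 28 members tested and 0 hosts, where 2.08% of all genes were called.

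Genes for the proteins of the snoRNA particle and its assembly were taken from a list of 16 names of core proteins and assembly factors, of which 14 were found and 13 could be tested with bleomycin. With bleomycin in Acta2-tdT cells 13 were called higher, where 70.4% of all genes tested were. Of these, 8 (Fbl, Rrp9, Znhit3, Znhit6, Ruvbl1, Ruvbl2, Rpap3 and Nolc1) had at least 1 FPKM in at most 2 saline mice and reached the filter because all 4 bleomycin mice did, so nothing is read from their calls. The other 5 had it in 3 or 4 saline mice. The core proteins Nop58 and Nop56 rose by 4.22 ± 0.43 and 4.05 ± 0.56 on the log2 scale (limma adjusted p = 1.83e-05 and 7.87e-05), and Nhp2l1, which binds the k-turn of the RNA, rose by 2.17 ± 0.42 (limma adjusted p = 0.000634). The assembly factor Pih1d1 rose by 3.35 ± 0.45 and the cap methyltransferase Tgs1 by 1.16 ± 0.22 (limma adjusted p = 6.69e-05 and 0.000566). With the protein-coding sum scaled to be equal, where 24.5% of all genes tested were called higher, Nop58 and Nop56 rose by 1.49 and 1.28 (limma adjusted p = 0.000788 and 0.0137) and Tgs1 fell by 0.53 (limma adjusted p = 0.0123). The difference of Nhp2l1 then turned to -0.54 and, like the 0.65 of Pih1d1, was not called (limma adjusted p = 0.0801 and 0.0697).

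Between the lines with bleomycin the same 13 were called higher in Acta2-tdT cells, where 71.0% of all genes were, but 9 of them had at least 1 FPKM in at most 2 Pdgfra-tdT bleomycin mice and entered in the same way. Of the other 4, Nop58 differed by 4.17, Nop56 by 3.88, Pih1d1 by 3.08 and Nhp2l1 by 1.80 (limma adjusted p = 0.000374, 0.00102, 0.00641 and 0.0281). With the scaling Nop58 and Nop56 differed by 1.70 and 1.41 (limma adjusted p = 0.00737 and 0.0250), where 17.2% of all genes were called higher, and Nhp2l1 and Pih1d1 were not called. With saline 5 could be tested between the lines and in Pdgfra-tdT cells 4 could be tested for bleomycin, and limma called 0 in either, with 0 at an unadjusted p under 0.05. Among the 4 genes, the interaction was called for Nop58 and Nop56 (limma adjusted p = 0.00162 and 0.0158) and not for Nhp2l1 and Pih1d1 (limma adjusted p = 0.0668 and 0.106), where 39.8% of all genes were called. With the scaling limma called it for none of the 4 (adjusted p of 0.074 to 0.982), where 2.08% of all genes were called.

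Other classes of small RNA genes were set beside the family to see which of its patterns they shared. Box H/ACA snoRNA genes (41), which guide the change of uridine to pseudouridine, were detected in 19 to 27 genes per mouse in Acta2-tdT bleomycin and 13 to 21 in Acta2-tdT saline mice. They had 5 to 13 in Pdgfra-tdT saline and 8 to 10 in Pdgfra-tdT bleomycin mice. The remaining 1367 genes with the biotype snoRNA, mostly predicted, went the other way, with 96 to 132 in Acta2-tdT bleomycin against 236 to 300 in Acta2-tdT saline mice. Spliceosomal and related snRNA genes (1382) had 60 to 157 against 287 to 331, and miRNA genes (2195) 217 to 317 against 382 to 434. In the Acta2-tdT line the counts of box C/D genes were thus higher with bleomycin with no overlap, those of box H/ACA genes overlapped, and those of predicted snoRNA, snRNA and miRNA genes were lower with no overlap, in libraries with more implied gene fragments. By fragments the order was another. Box H/ACA genes had 27.2 to 64.8 for every 1000000 implied gene fragments with bleomycin and 19.4 to 24.2 with saline, with no overlap, whereas those of box C/D genes overlapped.

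**Figure D5:**
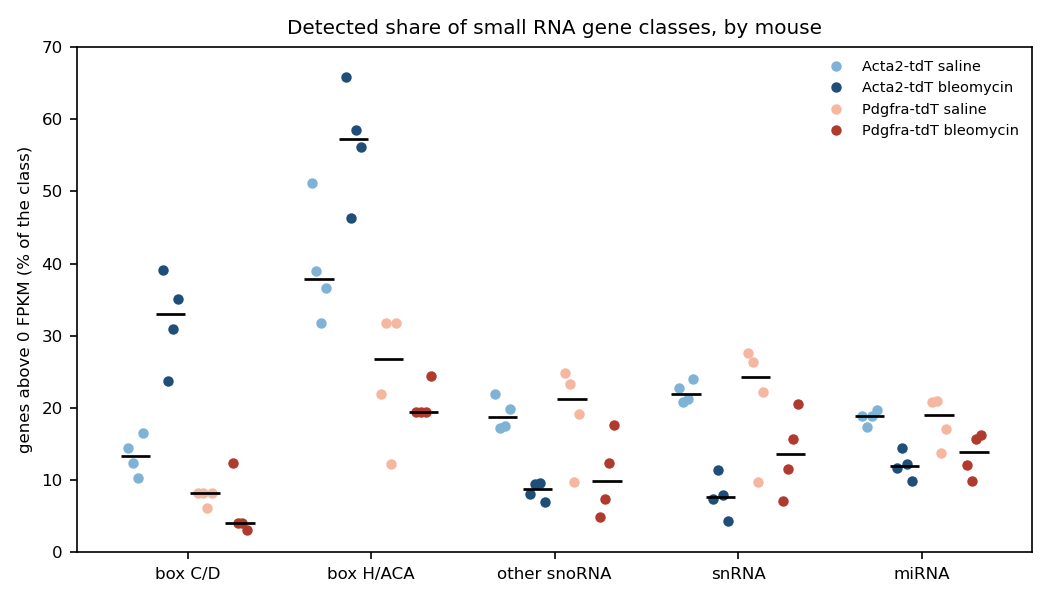
Percentage of the genes of each class above 0 FPKM, 1 point for each mouse and a line for the median of each group of 4. In Acta2-tdT cells the median of box C/D genes is 13.4% with saline and 33.0% with bleomycin, while those of predicted snoRNA, snRNA and miRNA genes are lower with bleomycin.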

How the data were processed

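RNA of sorted tdTomato-positive cells from the left lung lobe was sequenced after SmartSeq2 amplification, with 1 library for each of 16 mice. Reads were mapped by the authors to mm10 (GRCm38) using TopHat2 2.1.1 on top of Bowtie2 2.2.9, and FPKM were computed with Cufflinks 2.1.1. The deposited FPKM and their bounds were used here as they stand, for each mouse on its own and with no scaling between mice. Whether the counting used strand is not given in the sources used here. The tables held 49534 entries, and entries that share a gene ID were added up to 49452 genes. The 15 genes with a Cufflinks status other than OK in any mouse were left out of tests, and all 97 members had the status OK in every mouse. Starts were shifted by 1 base to match GENCODE M21, in which all 97 members were found with the same position. Only some of the sequences and hosts are reported here.

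Implied fragments were the square of 2 times FPKM over the distance from FPKM to its upper bound. They are approximate and describe counting only, and the depth itself is unknown. The relative depth used for normalization, from the ratio of FPKM to implied fragments over 5243 protein-coding genes, ran from 0.375 to 1.51 between mice, and 1 fragment is worth more in a shallower mouse. Libraries of separate mice were the replicates, 4 in each group.

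Values were read with pandas 2.3.3 and NumPy 2.4.6 in Python 3.11.15, beside SciPy 1.17.1. limma 3.58.1 (lmFit, then eBayes with trend) in R 4.3.3, with version 1.17.8 of data.table, tested log2(FPKM + 1). A gene was tested if 4 of the 8 mice compared, or 4 of 16 for the interaction, reached an FPKM of 1, with Benjamini-Hochberg adjustment over all genes tested. Plots were drawn with matplotlib 3.10.9. The procedure was tested on simulated data. For single genes the exact permutation test over mice was two-sided.

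The family and all lists were chosen with earlier results of these data known. Named genes were the 4 hosts and the members in them, the members of ribosomal RNA cleavage, the members with the highest median, up to 5 called members in each direction per comparison, and the particle proteins. Text on further members was added after their values were seen. Alternatives were 0.1 as pseudocount, no filter on low values, a filter on a mean FPKM of 5, 2 other scalings, all 16 mice in 1 fit, sample quality weights, the largest row per gene, any status, the replicate number as a block, and each mouse left out in turn.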

Additional observations from a re-analysis of the deposited data

Results flagged for a closer look

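In groups of 4 a mouse was looked at again where its distance to the nearest other mouse took up most of the range of the group, by Dixon's critical value at 95%. This held for 17 of 57 groups and measures that could be tried. In 7 of them the other 3 mice were listed at 0, where the distance fills the range by construction. The critical value is meant for normally spread values, which FPKM from a few fragments are not, so the count is not set against chance. Pdgfra-tdT saline mouse 3 had the lowest number of box C/D snoRNA genes (6, against 8 in the others), the most snoRNA fragments for every 1000000 gene fragments (13.7) and the highest Gas5 (21.1 FPKM), Snhg1 (11.9 FPKM), Rpl13a (33.0 FPKM), Snord96a (346 FPKM) and Snord100 (1101 FPKM) of its group. Pdgfra-tdT bleomycin mouse 5 had 12 snoRNA genes, 31.3 FPKM of Gas5 and 1460.0 FPKM of Snord104. These are the 2 mice with the highest protein-coding share of their groups.

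Acta2-tdT bleomycin mouse 5 was high for Snord100 (1430.0 FPKM) and Snord118 (291 FPKM), and Acta2-tdT saline mouse 1 for Snord13 (429 FPKM). Where all other mice of the group were at 0, the value was 122 FPKM for Snord32a in Pdgfra-tdT bleomycin mouse 7, 45.8 FPKM for Snord35a in Acta2-tdT saline mouse 4, 24.9 FPKM for Snord90 in Pdgfra-tdT saline mouse 2 and 115 FPKM for Snord96a in Acta2-tdT saline mouse 2. Each of these 4 values rests on 1 or 2 implied fragments.

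limma's interaction of line and bleomycin was called for the hosts Gas5 (adjusted p = 0.0454), Snhg1 (0.0208) and Snhg12 (0.000435). Of all genes tested, 39.8% were called. Snhg1 had at least 1 FPKM in 1 Pdgfra-tdT saline mouse and Snhg12 in 1 Pdgfra-tdT bleomycin mouse, so no difference between the lines is read from their calls. The fit across all genes also gave values for Snord4a (limma adjusted p = 1.64e-08), Snord78 (1.02e-06), Snord35a (0.00242), Snord22 (0.00283), Snord96a (0.00790) and Snord55 (0.0285). These reached the filter because all 4 Acta2-tdT bleomycin mice did, with 0 in every Pdgfra-tdT mouse except 1 for Snord96a, so these values are listed without a difference between the lines being read from them. With scaling to the protein-coding sum 2 members and 0 hosts were called, where 2.08% of all genes were. The bleomycin-treated Acta2-tdT libraries also had more implied gene fragments and higher macrophage and fibroblast marker sums, and the part of these in the result was not tested.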

How the results depend on the processing

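The counts of called members moved most. In the main fits 2.91% of all genes were called between the lines with saline and 79.6% with bleomycin. For bleomycin in Acta2-tdT cells 86.6% were called, and for the interaction 39.8%. For other filters and left-out mice the share of all genes is not given here, so those counts are not read as results about the members. With saline, 1 member was called between the lines without Pdgfra-tdT saline mouse 2 and 0 otherwise. With bleomycin the 12 calls between the lines became 20 with no filter, 20 with a mean FPKM of at least 5, and 4 to 12 when a mouse was left out, with 5, 4, 4 and 4 without Acta2-tdT bleomycin mouse 5, 6, 7 and 8, since fewer members (6 or 7) could then be tested. The 11 calls for bleomycin in Acta2-tdT cells became 5 with scaling to the protein-coding sum, 6 with quantile normalization (56.9% and 70.2% of all genes called), 14 with sample quality weights (91.2%) and 7 to 12 when a mouse was left out (7 without Acta2-tdT bleomycin mouse 7). In Pdgfra-tdT cells every alternative gave 0. The 6 calls for the interaction became, of 28 tested, 2 with the protein-coding sum, 3 with quantile normalization, 13 with sample quality weights (2.08%, 9.61% and 64.2% of all genes called) and 3 to 9 when a mouse was left out, with 3 without Acta2-tdT bleomycin mouse 7 or 8. The cause was not tested except where the number of genes tested changed. No called member changed its direction. In Acta2-tdT cells Snord100 lost its call in 12, Snord32a in 4, Snord90 and Snord118 in 3, Snord22 and Snord55 in 2 and Snord104 in 1 of 17 alternatives. Between the lines with bleomycin Snord13 lost it in 5 and Snord32a in 3 of 18, and in the interaction Snord55 in 9, Snord22 and Snord96a in 2 and Snord35a in 1 of 26.

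The 8 calls of hosts (of 16 tests) became 6 with the protein-coding sum and 8 to 11 when a mouse was left out. These counts too are not read apart from the share of all genes called. Sample quality weights added Rpl13a between the lines with saline (33.3% of all genes called) and for bleomycin in Pdgfra-tdT cells (7.53%). They also added Snhg1 between the lines with saline. It reached the filter there because all 4 Acta2-tdT mice did, so nothing is read from that call. The number of detected genes per mouse had medians of 13, 32, 8 and 4 in the order of the groups above. Where the lower Cufflinks bound had to be above 0 it was 1, 7, 0 and 0, and for Pdgfra-tdT saline it was 7 at 1 FPKM and 6.5 at 10 FPKM.

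Same-numbered mice of the lines did not deviate together (correlations of -0.09 to 0.16 with saline and -0.31 to 0.07 with bleomycin), so the numbers were not taken as pairs. With the replicate block 13 of 15 members were called between the lines with bleomycin and 9 of 28 for the interaction, where 78.2% and 31.6% of all genes were. The block was not fitted for bleomycin within a line, so no total of host calls is given for it.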
